A study of Mus musculus with 10 samples.

Results

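The ephrins are the membrane-bound ligands of the Eph receptor tyrosine kinases. All 8 mouse ephrin genes, Efna1 to Efna5 and Efnb1 to Efnb3, were taken by symbol from a table of 55487 genes measured by RNA sequencing in the cerebral cortex of mice at postnatal day 18. The study compared 5 Usp7 cKO; Trp53+/- animals with 5 Usp7 WT; Trp53+/- animals, called Usp7 cKO and Usp7 WT here. Usp7 encodes a deubiquitinase, and its floxed alleles (Usp7 fl/fl) were recombined by NEX-cre, which acts in glutamatergic neurons from the Neurod6 (NEX) locus. Both groups carried a single functional Trp53 allele, the labels do not say whether the Usp7 WT animals carried Cre, and there was no group with 2 Trp53 alleles. The question put to these data was which ephrins, and which genes that act with them, differed in transcript level or splicing between the groups.

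Ephrins of the A class are held in the outer leaflet of the membrane by a lipid (GPI) anchor, whereas those of the B class span the membrane and have a short cytoplasmic tail. Ligand on one cell binds receptor on its neighbour, which starts forward signalling in the receptor cell and, through the ephrin itself, reverse signalling in the ligand cell. In the cortex the system is known for repelling growing axons, for ordering thalamocortical and callosal maps, and for shaping dendritic spines and vessels.

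The B ephrins end in a conserved sequence that PDZ scaffold proteins bind, and this tail is what separates their reverse signalling from that of the A class. The last 102 coding bases of each B ephrin are given here from GENCODE M21 transcripts on GRCm38, with the final 12 bases, which encode the PDZ-binding end, in capitals; they show how closely Efnb3, 1 of the ephrins called between the groups, resembles the other members of its class.
Efnb1 (Efnb1-201, chrX:99147423-99147524, plus strand): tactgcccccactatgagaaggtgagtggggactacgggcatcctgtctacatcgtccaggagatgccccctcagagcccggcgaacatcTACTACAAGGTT
Efnb2 (Efnb2-201, chr8:8620591-8620692, minus strand): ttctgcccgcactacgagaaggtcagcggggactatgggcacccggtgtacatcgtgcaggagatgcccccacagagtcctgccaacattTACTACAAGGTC
Efnb3 (Efnb3-201, chr11:69555863-69555964, minus strand): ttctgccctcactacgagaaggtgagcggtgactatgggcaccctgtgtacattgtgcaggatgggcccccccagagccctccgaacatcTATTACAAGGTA
The Efnb3 tail matched that of Efnb2 at 87 of 102 bases (85.3%) and that of Efnb1 at 84 of 102 (82.4%). The Efnb1 and Efnb2 tails matched at 86 of 102 bases (84.3%). Within the final 12 bases, Efnb3 shared 10 with each of the other two.

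A further 3 sequences are the coding exons that spliced reads either joined or skipped, since they are where ephrin transcripts differed in structure in these libraries. Capitals mark the exon and lower case the 15 transcript bases on either side of it.
Efna3 exon 4 (Efna3-201, chr3:89315808-89315885, minus strand): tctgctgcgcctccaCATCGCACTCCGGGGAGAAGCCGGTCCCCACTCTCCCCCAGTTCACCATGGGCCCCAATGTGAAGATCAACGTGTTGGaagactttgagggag
Efna5 exon 4 (Efna5-201, chr17:62613316-62613396, minus strand): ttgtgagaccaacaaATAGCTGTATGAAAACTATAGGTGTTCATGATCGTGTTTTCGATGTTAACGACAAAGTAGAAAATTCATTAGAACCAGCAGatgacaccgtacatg
Efnb2 exon 3 (Efnb2-201, chr8:8623148-8623240, minus strand): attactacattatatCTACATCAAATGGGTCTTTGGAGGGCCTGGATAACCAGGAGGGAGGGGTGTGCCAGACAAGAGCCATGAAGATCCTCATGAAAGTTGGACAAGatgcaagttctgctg
These exons are 78, 81 and 93 bases long. Each length is a multiple of 3, so skipping leaves the reading frame in place.

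The libraries held 42628526 to 51797145 reads counted in exon bins. Usp7 itself was at 48.3 to 61.9 TPM (a relative transcript level corrected for transcript length) in Usp7 WT against 31.6 to 40.9 TPM in Usp7 cKO, with no overlap, in tissue where other cell types kept the gene. Neurod6, the gene of the Cre locus, was at 50.1 to 54.4 TPM in Usp7 WT against 21.5 to 26.6 TPM in Usp7 cKO. Xist and Ddx3y went against the labelled sex in 2 libraries, Usp7 WT replicate 2 (labelled female, Xist 0.0478 TPM and Ddx3y 22.8 TPM) and Usp7 cKO replicate 1 (labelled male, Xist 116 TPM and Ddx3y 0.0523 TPM); the ephrin results, and those of pathway and neighbouring genes whose call ended without both libraries, are also given without them. By Xist and Ddx3y the males were Usp7 WT replicates 2, 3 and 4 and Usp7 cKO replicate 4, so expressed sex was not balanced between the groups. The library identifiers run in genotype order, so library order and genotype cannot be told apart. The markers of glutamatergic neurons were present as the tissue label says, and so were those of 8 other cell classes, with no marker at 0 in every library.

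All 8 ephrins were detected, over a wide range of levels. Of the exon bin reads of Efna4, 92.9% ± 5.04 (SD) in Usp7 WT lay in its last bin. In Usp7 WT cortex their order by TPM was Efnb3 (80.7 ± 10.6, SD, n = 5), Efnb2 (43.0 ± 3.68), Efna5 (34.3 ± 2.88), Efna3 (33.1 ± 2.19), Efna2 (17.9 ± 2.49), Efnb1 (13.1 ± 2.24), Efna1 (3.89 ± 0.249) and Efna4 (2.701 ± 0.610). Neighbours in this order had separate ranges over the 5 libraries except Efna5 with Efna3, whose ranges overlapped in both groups, and Efna2 with Efnb1, whose ranges overlapped in Usp7 WT and were apart in Usp7 cKO. The order itself was the same in both groups.

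**Figure D1:**
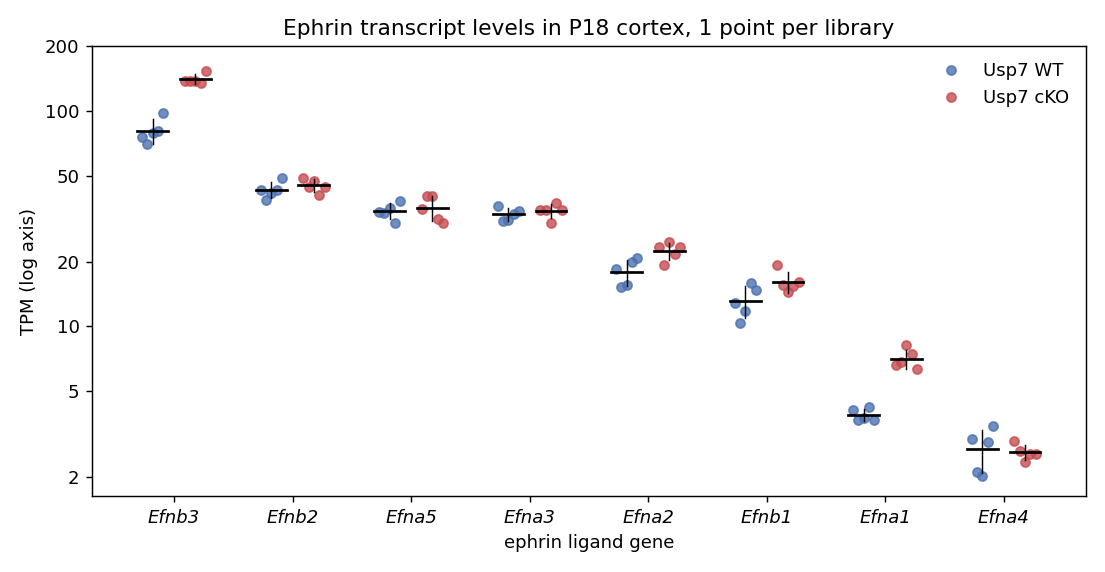
Transcript levels (TPM, log axis) of the 8 ephrin genes, 1 point per library (5 Usp7 WT in blue, 5 Usp7 cKO in red), with the mean as a horizontal bar and ±1 SD as a vertical line. The 2 groups are apart for Efnb3 (70.1 to 98.2 against 135 to 153 TPM) and Efna1 (3.69 to 4.22 against 6.33 to 8.18 TPM) and overlap for the other 6 genes.

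Between the groups, 2 of the 8 ephrins rose in Usp7 cKO cortex, Efnb3 and Efna1, and none fell. These calls come from limma on log2(TPM + 0.5) with Benjamini-Hochberg adjustment over 27580 genes at a threshold of 0.05; all 8 ephrins passed the filter of a mean of 0.5 TPM. At an unadjusted p of 0.05, 4 ephrins were higher and 0 lower. The share of all genes past that unadjusted threshold is not given here, and the shares that follow are of adjusted calls. Across all genes tested, 13.9% were called, 9.22% higher and 4.67% lower; after the TPM were rescaled by median-of-ratios size factors, 20.3% were called, 9.8% higher and 10.5% lower. The median log2 change of the 8 ephrins was 0.18, against 0.06 for all genes tested. A change above 0 was seen in 7 of 8, but the median of all genes was itself above 0. Efna3 (0.05) and Efna5 (0.04) lay below that median, and the sign of each turned after rescaling. The count of 2 higher and 0 lower was the same without the libraries of discordant sex, a fit that called 7.89% of all genes (4.75% higher and 3.14% lower). edgeR on summed exon bin counts, and DESeq2 on the same counts, each called 3 higher, Efna2 being the third, and 0 lower; over all genes edgeR called 28% (14.1% higher) and DESeq2 22.9% (10.6% higher).

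**Figure D2:**
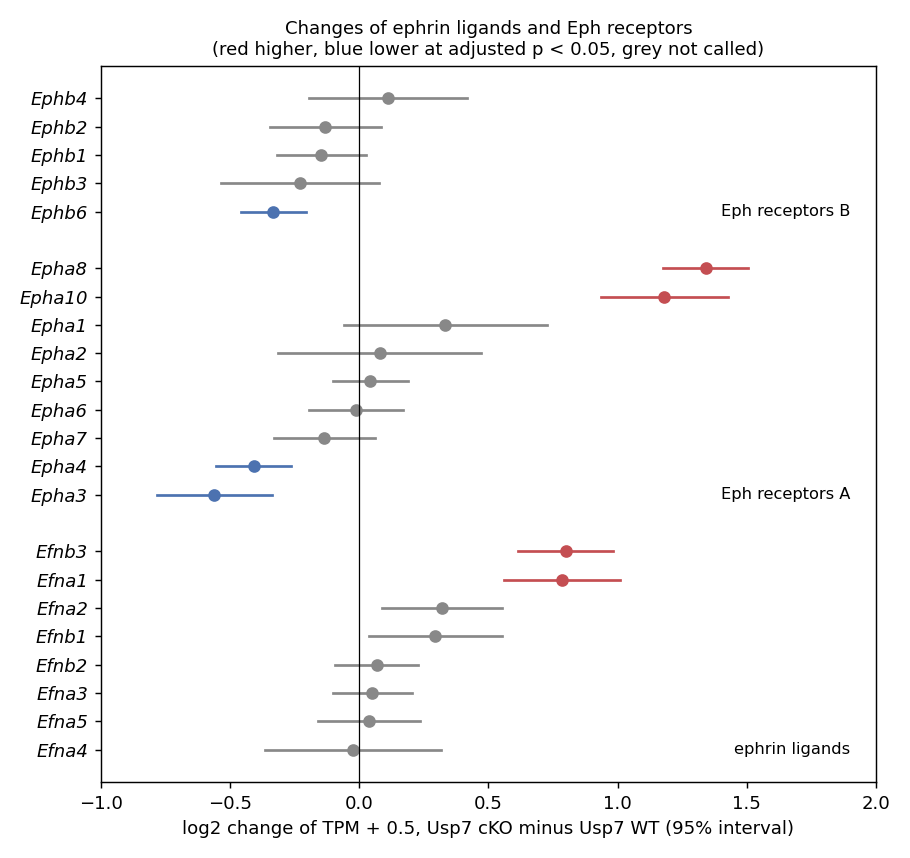
Log2 change of TPM + 0.5 (Usp7 cKO minus Usp7 WT) with its 95% interval for the 8 ephrins, 9 A-class Eph receptors and 5 B-class Eph receptors, from limma over 10 libraries. Red points are higher and blue points lower at an adjusted p below 0.05. The called ephrins lie at 0.80 (Efnb3) and 0.79 (Efna1), between the receptors Epha10 (1.18) and Epha8 (1.34) on one side and Ephb6 (-0.33), Epha4 (-0.41) and Epha3 (-0.56) on the other.

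Efnb3, the B ephrin known as a midline barrier for corticospinal axons that carry Epha4, was the most abundant ephrin and had the smallest p of the 8. Its level in the Usp7 WT libraries was 75.6, 70.1, 78.9, 80.5 and 98.2 TPM, and in the Usp7 cKO libraries 138, 137, 137, 135 and 153 TPM. Every Usp7 cKO library lay above every Usp7 WT library, and the highest library of each group was its replicate 5. The means were 80.7 ± 10.6 and 140 ± 7.53 TPM (SD, n = 5 each), a log2 change of 0.80 (SE 0.0827, limma adjusted p = 0.000194). The exact two-sided permutation test over all regroupings of the libraries gave p = 0.00794, the smallest that 5 against 5 allows. Of all genes tested, 8.19% were higher in 5 of 5 libraries without overlap and 4.58% were lower, so groups that do not overlap were common in these data. Larger positive changes were seen in 4.65% of genes tested. The value was 0.73 without both libraries of discordant sex, 0.74 after rescaling and 0.77 by edgeR, and it passed the threshold in all 21 alternatives.

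In whole tissue, fewer cells of a type and less RNA per cell cannot be told apart. The summed TPM of the 6 glutamatergic markers was 3149 to 3502 in Usp7 WT against 2255 to 2725 in Usp7 cKO, and 6 of 6 fell. Among them, Neurod6 is the gene of the Cre locus, so an effect of that allele and a shift of the cell class cannot be told apart in its fall. Of the 6 oligodendrocyte precursor markers 2 rose, C1ql1 and Lhfpl3, against 9.22% higher of all genes tested, and 5 of 6 had a change above 0. The sum of the 6 was 182 to 235 TPM in Usp7 WT against 219 to 275 TPM in Usp7 cKO. This sum leans on C1ql1, which went from 31.5 ± 2.36 to 70.0 ± 7.56 TPM. Gpr17 was at 108 ± 13.4 and 96.1 ± 23.2 TPM and was not called. None of the 6 oligodendrocyte markers was called (0 at an unadjusted p of 0.05), with sums of 2427 to 3396 and 2636 to 3370 TPM. Of the 6 microglial markers 5 fell (202.7 to 232 against 144 to 169 TPM). Of the 6 GABAergic markers 1 fell, the calcium-binding protein gene Pvalb (56.5 ± 5.01 to 36.6 ± 9.94 TPM, limma adjusted p = 0.0489), with sums of 922 to 996 and 799 to 940 TPM; edgeR and rescaled TPM each called 2 lower. The part of these shifts in the ephrin results was not tested.

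Efnb2, which marks arteries in vessels and is also made by cortical neurons, was the second most abundant ephrin. It was at 42.7, 38.7, 41.7, 43.1 and 48.8 TPM in Usp7 WT and 48.9, 44.2, 47.2, 40.6 and 44.5 TPM in Usp7 cKO. The groups overlapped along most of their range. The means were 43.0 ± 3.68 and 45.1 ± 3.17 TPM, a log2 change of 0.07 (95% interval -0.09 to 0.23, limma adjusted p = 0.589). The change of Efnb2 was -0.03 without the libraries of discordant sex, so its sign was not settled.

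Efnb1 lies on the X chromosome and its human counterpart is the gene of craniofrontonasal syndrome. Usp7 WT libraries held 12.9, 10.3, 11.7, 15.9 and 14.7 TPM and Usp7 cKO libraries 19.2, 15.6, 14.4, 15.3 and 16.1 TPM. Most Usp7 cKO libraries were above most Usp7 WT libraries, but Usp7 WT replicate 4 lay above 3 of them. The means were 13.1 ± 2.24 and 16.1 ± 1.82 TPM, and the log2 change of 0.30 (95% interval 0.04 to 0.55) did not pass the adjusted threshold (limma adjusted p = 0.126). The highest Efnb1 value was in Usp7 cKO replicate 1, 1 of the libraries of discordant sex, and the change was 0.15 (adjusted p = 0.458) without those 2 libraries and 0.25 with Xist as a covariate.

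The balance within the B class differed between the groups. The ratio of Efnb3 to Efnb2 TPM was 1.87 ± 0.0918 in Usp7 WT against 3.12 ± 0.270 in Usp7 cKO (SD, n = 5). Efnb3 made up 35.2% ± 1.58 of the summed TPM of all 8 ephrins in Usp7 WT against 46.2% ± 1.85 in Usp7 cKO. Summed B-class TPM was 137 ± 15.7 in Usp7 WT against 201.2 ± 8.82 in Usp7 cKO, while summed A-class TPM was 91.9 ± 6.02 and 102 ± 3.18. These sums are given as descriptions with no test.

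Efna1, an A ephrin known in endothelium as a gene induced by inflammatory cytokines, was the other ephrin called, at a much lower level. It was at 4.10, 3.69, 3.74, 4.22 and 3.70 TPM in Usp7 WT and 6.65, 6.86, 8.18, 7.41 and 6.33 TPM in Usp7 cKO. The lowest Usp7 cKO library was above the highest Usp7 WT library. The means were 3.89 ± 0.249 and 7.08 ± 0.729 TPM, a log2 change of 0.79 (SE 0.101, limma adjusted p = 0.000736), on 68 to 162 exon bin reads per library. The exact permutation test gave p = 0.00794, again the smallest possible. The change was 0.80 without the libraries of discordant sex, 0.73 by edgeR, and called in all 21 alternatives.

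Vascular markers were read beside Efna1. None of the 6 endothelial markers was called (0 at an unadjusted p of 0.05), with summed levels of 81.6 to 126 TPM in Usp7 WT against 87.7 to 149 TPM in Usp7 cKO. Of the 6 arterial endothelial markers 1 rose, the gap junction gene Gja4 (5.40 ± 0.909 to 8.98 ± 1.24 TPM), and their sum was 52.7 to 64.8 and 59.8 to 66.1 TPM. None of the 6 mural markers was called by limma (1 at an unadjusted p of 0.05; edgeR called 1 higher and 1 lower), with sums of 113 to 148 and 122 to 165 TPM. Of the 6 astrocyte markers 1, Gfap, rose, and 3 of 6 had a change above 0. By limma at an unadjusted p of 0.05, 1 was higher and 1 lower. edgeR and rescaled TPM each called 1 higher and 1 lower. The part of any of these in the Efna1 result was not tested.

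Efna2, which with Efna5 is known for graded expression that orders sensory maps, had a change that the tests treated differently. It was at 18.4, 15.2, 15.5, 19.8 and 20.7 TPM in Usp7 WT and 23.2, 19.3, 24.6, 21.6 and 23.4 TPM in Usp7 cKO. All Usp7 cKO libraries but replicate 2 were above every Usp7 WT library. The means were 17.9 ± 2.49 and 22.4 ± 2.03 TPM, a log2 change of 0.32 (95% interval 0.09 to 0.55, limma adjusted p = 0.0692), which was not called. On exon bin counts the gene was called, with a change of 0.34 and an adjusted p of 0.00711 by edgeR and 0.33 and 0.0025 by DESeq2. It was also called by limma without Usp7 WT replicate 5 (adjusted p = 0.0434) or without Usp7 cKO replicate 2 (adjusted p = 0.0486), and the change was 0.23 (adjusted p = 0.269) without the libraries of discordant sex. Limma also called Efna2 with the suffix of the library titles (1, 2 or 3, unexplained in the labels) as a block. Within each suffix every Usp7 cKO library lay above every Usp7 WT library, a reading made after seeing the data.

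Efna3, Efna4 and Efna5 gave no call under any of the 21 alternatives. Efna3, known as an astrocyte ligand of Epha4 at hippocampal spines, ranged over 30.9 to 36.0 TPM in Usp7 WT against 30.3 to 37.4 TPM in Usp7 cKO (log2 change 0.05, 95% interval -0.10 to 0.20, and 0.02 without the libraries of discordant sex). Efna5 ranged over 30.2 to 38.1 and 30.3 to 40.3 TPM (0.04, interval -0.16 to 0.24, and -0.0074 without those libraries). Efna4, the least abundant ephrin, ranged over 2.02 to 3.44 and 2.35 to 2.93 TPM (-0.02, interval -0.37 to 0.32, and -0.17 without the libraries of discordant sex) on 25 to 44 exon bin reads per library, so only large changes were detectable. The sign of all 3 changes turned under at least 1 alternative. The product of genotype and labelled sex was called for 0 of the 8 ephrins by limma, and 0 had an unadjusted p below 0.05. It rests on labels that Xist and Ddx3y contradict in Usp7 WT replicate 2 and Usp7 cKO replicate 1. By those genes Usp7 cKO replicate 4 was the sole male of its group, so this fit cannot decide whether the sexes differ.

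Among the 14 Eph receptor genes, 2 rose and 3 fell in Usp7 cKO cortex, against 9.22% higher and 4.67% lower of all genes tested. All 5 calls held in each of 13 alternatives. The median log2 change of the 14 was -0.07. In the A class, Epha8, a receptor kinase that binds A ephrins, rose from 11.4 ± 1.24 to 29.8 ± 3.64 TPM (log2 1.34, SE 0.0742). Epha10, which lacks kinase activity, rose from 32.7 ± 3.15 to 76.1 ± 17.8 TPM (1.18, SE 0.110), with Usp7 cKO replicate 3 highest at 105 TPM. Epha4, which binds ligands of both classes including Efnb3, fell from 149 ± 8.99 to 113 ± 9.51 TPM (-0.41, SE 0.0655). Epha3 fell from 5.62 ± 0.115 to 3.66 ± 0.385 TPM (-0.56, SE 0.10). For each of these 4 receptors the groups did not overlap, as was so for 12.8% of all genes tested.

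Epha1 was at 1.27 ± 0.303 TPM in Usp7 WT against 1.72 ± 0.385 TPM in Usp7 cKO and was not called. Of the 5 B-class receptors, which are the usual partners of the B ephrins, Ephb6, another receptor without kinase activity, fell from 234 ± 19.2 to 186 ± 12.8 TPM (log2 -0.33, SE 0.0566), with ranges that overlapped (201.8 to 251 and 171 to 205 TPM). Ephb1 (43.7 ± 4.26 and 39.5 ± 3.91 TPM), Ephb2 (18.5 ± 1.46 and 17.0 ± 2.92 TPM), Ephb3 (30.5 ± 5.02 and 26.0 ± 4.07 TPM) and Ephb4 (5.24 ± 0.659 and 5.74 ± 1.1 TPM) were not called; edgeR called Ephb1 lower (-0.21, adjusted p = 0.0196), and the change of Ephb3 was -0.23 with all libraries and -0.40 without those of discordant sex.

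Efnb3 and its receptor Epha4 moved in opposite directions in the same libraries. The ratio of Efnb3 to Epha4 TPM was 0.487, 0.487, 0.523, 0.588 and 0.616 in Usp7 WT and 1.17, 1.17, 1.11, 1.28 and 1.53 in Usp7 cKO. The ligand's transcript was below the receptor's in all 5 Usp7 WT libraries and above it in all 5 Usp7 cKO libraries. Each gene was already called without overlap, in opposite directions, so groups apart in this ratio follow from those results. The ratio is given as a description with no test.

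Of 24 genes of Eph forward signalling, 2 rose and 2 fell, against 9.22% higher and 4.67% lower of all genes tested. The median log2 change of the 24 was 0.01. Tiam1, an exchange factor for Rac, rose from 58.1 ± 5.89 to 80.0 ± 5.06 TPM (log2 0.46, adjusted p = 0.00203) and kept its call in all 13 alternatives. Vav2, an exchange factor that Eph receptors recruit, rose from 14.7 ± 1.57 to 19.6 ± 3.23 TPM (0.40) and was called in 8 of 13. Without the libraries of discordant sex it was not called (0.29, adjusted p = 0.116). Ngef (ephexin), the exchange factor that Epha4 acts through, fell from 274 ± 26.9 to 227 ± 2.97 TPM (-0.27) and was called in 12 of 13. Without those libraries it was not called (-0.29, adjusted p = 0.0588). Kalrn, an exchange factor downstream of EphB receptors in spines, fell from 208 ± 18.7 to 167 ± 20.8 TPM (-0.31) and was called in 7 of 13. Ptk2, the focal adhesion kinase, was at 58.9 ± 5.45 and 51.2 ± 2.55 TPM and was not called. The number lower depended on scaling. Rescaled TPM gave 2 higher and 8 lower, against 9.8% higher and 10.5% lower of all genes. edgeR gave 2 higher and 10 lower, against 14.1% higher and 13.9% lower.

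Of 12 genes of ephrin reverse signalling and shedding, 3 rose and 1 fell, against 9.22% higher and 4.67% lower of all genes tested. The median log2 change of the 12 was 0.19. Grip2 and Grip1, PDZ scaffolds that bind the tails shown above, rose from 16.6 ± 2.31 to 24.1 ± 4.61 TPM (log2 0.51) and from 19.4 ± 2.43 to 24.7 ± 2.56 TPM (0.34). Psen2, a catalytic subunit of gamma-secretase, rose from 14.3 ± 0.819 to 17.4 ± 1.54 TPM (0.27). Adam10, a protease that sheds ephrins, fell from 50.5 ± 3.49 to 43.8 ± 1.68 TPM (-0.20). Ptpn13, a PDZ phosphatase that binds B ephrins, was at 7.69 ± 1.20 and 10.04 ± 1.14 TPM and was not called. None of the 4 calls held without the libraries of discordant sex (adjusted p of 0.0587 for Grip1, 0.0831 for Grip2, 0.163 for Psen2 and 0.0949 for Adam10). The log2 changes in that fit were 0.30 for Grip1, 0.42 for Grip2, 0.25 for Psen2 and -0.23 for Adam10. It held 8 libraries and called 7.89% of all genes, against 13.9% with all 10. Psen2 and Adam10 kept their calls in only 5 and 3 of 13 alternatives.

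Within 50 kb of the 8 ephrins there were 23 other protein-coding genes, of which 7 rose and 1 fell, against 9.22% higher and 4.67% lower of all genes tested. Without the libraries of discordant sex 2 rose, Atp1b2 and Cirbp, and 0 fell, against 4.75% and 3.14%. Efnb3 (chromosome 11, 69554092 to 69560205, GRCm38) has Trp53 as a neighbour 20.2 kb away, the gene for which both groups were heterozygous. Trp53 was at 12.5 ± 1.42 TPM in Usp7 WT against 12.6 ± 1.96 TPM in Usp7 cKO, and Wrap53, between them and 1.55 kb from Efnb3, was at 14.0 ± 1.48 and 13.5 ± 2.07 TPM. Neither was called, nor was Dnah2 on the other side (1.52 ± 0.376 and 1.84 ± 0.530 TPM). Atp1b2, a sodium pump subunit 39.5 kb away, rose from 306 ± 12.5 to 385 ± 20.2 TPM (log2 0.33) and was called in all 13 alternatives.

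Efna1, Efna3 and Efna4 lie together on chromosome 3 between 89271733 and 89338028, all on the minus strand, and only Efna1 was called among them. Slc50a1, a sugar transporter gene 1.16 kb from Efna1, rose from 28.1 ± 4.38 to 40.8 ± 7.61 TPM (log2 0.53, adjusted p = 0.0133). Thbs3 (0.49), Dcst1 (0.59) and Dcst2 (0.79) also rose. Of these 4, Slc50a1, Dcst1 and Thbs3 kept their calls in 12, 12 and 10 of 13 alternatives and Dcst2 in 3; without the libraries of discordant sex none of the 4 was called (adjusted p of 0.0682 for Slc50a1, 0.0771 for Dcst1, 0.0790 for Thbs3 and 0.135 for Dcst2). Muc1 (2.46 ± 0.474 and 3.66 ± 0.816 TPM), Mtx1, Trim46, Krtcap2, Dpm3, Adam15 and Zbtb7b were not called, and 2 of the ephrins that were not called, Efna3 and Efna4, lie between Efna1 and the Dcst genes.

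**Figure D3:**
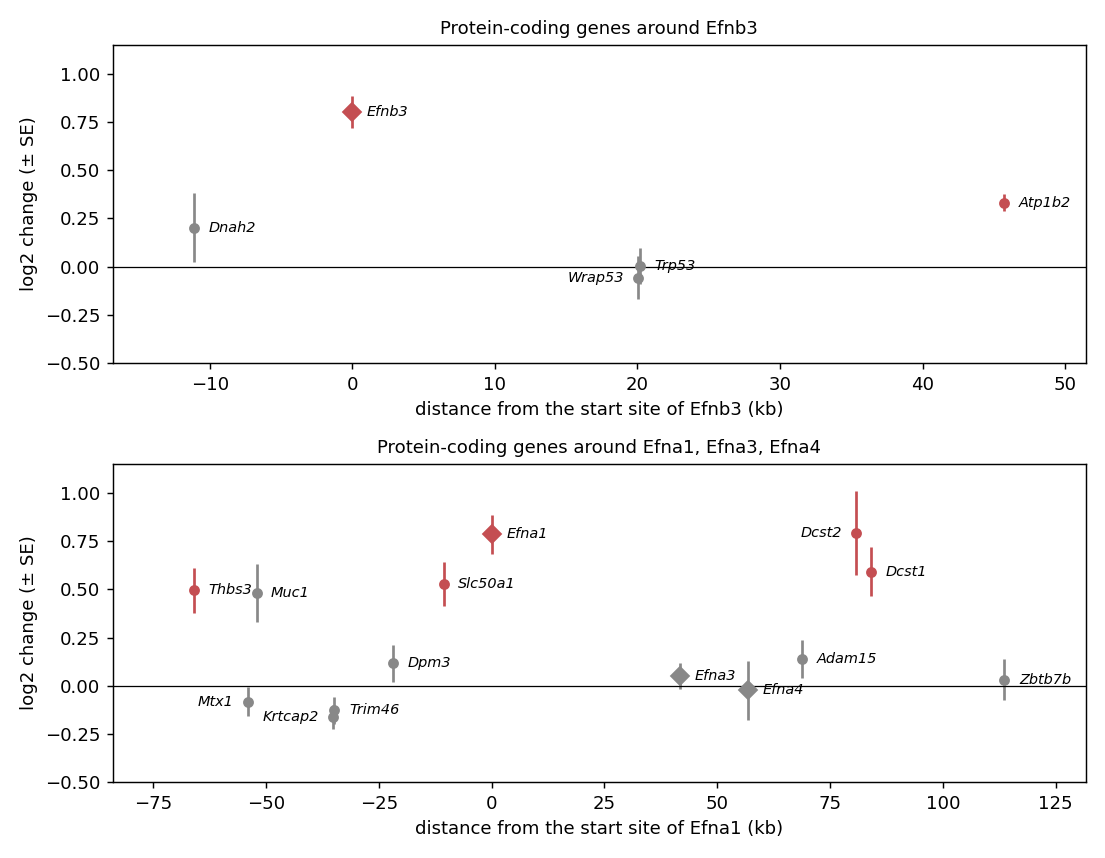
Log2 change (Usp7 cKO minus Usp7 WT, ±1 SE) of protein-coding genes against the distance of their start site (kb) from that of Efnb3 (upper panel) and Efna1 (lower panel); diamonds are ephrins and circles other genes, red where called higher and grey where not called. Wrap53 and Trp53 lie near 0 beside Efnb3 at 0.80, and Efna3 and Efna4 lie near 0 between Efna1 at 0.79 and Dcst2 at 0.79.

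Around Efna2 on chromosome 10, Cirbp, a cold-inducible RNA-binding protein gene, rose from 53.4 ± 7.32 to 75.4 ± 9.72 TPM (log2 0.49) and Mum1 from 11.6 ± 1.33 to 16.3 ± 2.46 TPM (0.47), the latter not called without the libraries of discordant sex (adjusted p = 0.0730). Cbarp fell from 349 ± 8.23 to 315 ± 11.3 TPM (-0.15), a call kept in 9 of 13 alternatives and not without those libraries (adjusted p = 0.0589). Stk11, Atp5d, Midn and 1600002K03Rik were not called. Arglu1, the sole such gene near Efnb2, was at 35.4 ± 4.39 and 38.1 ± 6.01 TPM and was not called, and none lay that close to Efna5 or Efnb1.

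Splicing of the ephrins was read from exon bins and from spliced reads. The 8 genes had 54 exon bins, of which 38 were tested and 0 differed in relative use by edgeR (0 at an unadjusted p of 0.05), against 0.43% of 228098 bins. By the combined test of a gene's bins, 0 of the 7 ephrins with enough bins were called, against 2.85% of 13954 genes. In the authors' deposited table, 43 of these bins had an adjusted p, of which 0 were below 0.05 and the smallest was 0.238, and 3 of 50 had an unadjusted p below 0.05. The 5 bins of Efnb3 moved together: each bin's share of the gene's reads was close in the groups, as in the last bin of the transcript, which held 51.5% ± 1.9 in Usp7 WT against 51.9% ± 2.10 in Usp7 cKO.

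In 4 bins no library had a read. Of these, 2 were edge bins of 3 and 4 bases in Efna1. In the other two, the third exon of Efna3 and the first exon of Efna4, the bin overlaps an antisense gene (Gm15998 and 4731419I09Rik), and spliced reads that end at the Efna3 exon were counted in every library. Exon bin counts of these 2 ephrins rest on their remaining exons, and unevenly. In Efna4 the last bin held 322 reads over all libraries and the next bins 12 and 15. The 2 bins of Efna3 exon 4, also inside Gm15998, held 50 and 45 reads. That was below the filter, so bin use did not test this exon. Since the sources used here do not state that strand was used in counting, reads of a gene and its antisense partner cannot be told apart. A bin of 194 bases inside the first intron of Efnb1 had 1, 0, 0, 3 and 0 reads in Usp7 WT and 2, 5, 5, 5 and 2 in Usp7 cKO, too few to test here. The authors' DEXSeq comparison gave this bin a log2 change of 2.01 and an unadjusted p of 0.00615, with no adjusted p. It is among the 3 bins of 50 counted above.

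Spliced reads gave 5 testable groups of introns in 4 ephrins, of which 0 were called by edgeR (0 at an unadjusted p of 0.05, and 1 of 13 single introns), against 0.22% of 10441 groups and 0.117% of introns over all genes. The share of reads skipping an exon was taken as the skipping reads over those reads plus the mean of the reads on the 2 flanking junctions. Efnb2 exon 3 was skipped by 4.69%, 7.79%, 9.60%, 10.4% and 6.71% of reads in Usp7 WT and 28.6%, 19.0%, 15.2%, 8.11% and 19.8% in Usp7 cKO. Usp7 cKO replicate 4 lay among the Usp7 WT libraries and the other 4 above them. The means were 7.84% ± 2.29 and 18.1% ± 7.45, from 29 and 61 skipping reads in all, with an exact two-sided permutation p of 0.0238 that is not adjusted for the 3 exons read. The intron group was not called (edgeR adjusted p = 1), and the difference of 10.3 percentage points was 7.69 without the libraries of discordant sex.

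Efna3 exon 4 was skipped by 8.89%, 6.56%, 3.66%, 6.12% and 5.56% of reads in Usp7 WT and 12.3%, 10.6%, 8.24%, 8.70% and 9.60% in Usp7 cKO. The highest Usp7 WT library overlapped the lower Usp7 cKO libraries. The means were 6.16% ± 1.89 and 9.88% ± 1.62 (48 and 76 skipping reads, exact permutation p = 0.0238 before any adjustment), and the intron group had an adjusted edgeR p of 1. That difference was 3.73 percentage points, and 3.23 without the libraries of discordant sex. The few reads in the bins of this exon went the other way. The authors' log2 changes there were 0.52 and 0.65, toward more use in Usp7 cKO, neither with an adjusted p below 0.05. Efna5 exon 4 was the most often skipped, by 33.5% ± 3.79 of reads in Usp7 WT against 32.8% ± 12.1 in Usp7 cKO (exact permutation p = 0.937), a difference of -0.658 percentage points that was -3.56 without the libraries of discordant sex. Usp7 cKO libraries spread from 13.9% to 45.7% there, around a Usp7 WT range of 28.8% to 38.6%. In Efnb3, reads using an unannotated 3′ splice site further along the last exon made up 6.17% ± 2.57 of the last intron's reads in Usp7 WT against 6.70% ± 1.89 in Usp7 cKO.

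**Figure D4:**
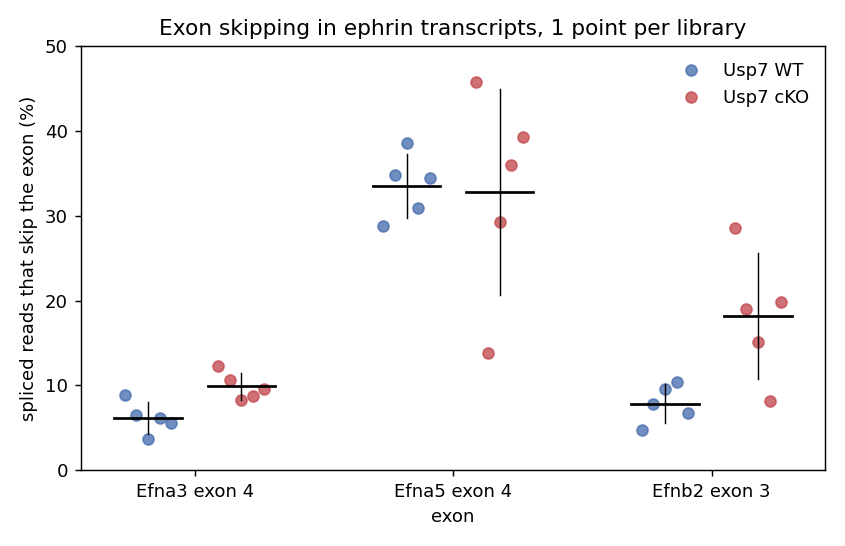
Share of spliced reads (%) that skip each of 3 ephrin exons, 1 point per library (5 Usp7 WT in blue, 5 Usp7 cKO in red), with the mean as a horizontal bar and ±1 SD as a vertical line. Skipping of Efnb2 exon 3 ranges from 4.69% to 10.4% in Usp7 WT and from 8.11% to 28.6% in Usp7 cKO, and the means for Efna5 exon 4 are 33.5% and 32.8%.

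Genes whose pattern was most like that of Efnb3 were ranked by Pearson's r of log2(TPM + 0.5) among 14738 genes, as a description; the 10 libraries share their group structure and depth. Over the 10 libraries the closest were Mcm6 (r = 0.992), Kif27 (0.992), Slc44a5 (0.990), Xkr8 (0.990) and Slc10a4 (0.989), all of them higher in Usp7 cKO. Within groups, by deviations from the group means, they were Ttc34 (0.972), Sox4 (0.948), Zbtb37 (0.940), Chek1 (0.937) and Pdzd4 (0.936), of which Ttc34 was also called higher. Efnb3 was highest in replicate 5 of each group, so few libraries weigh heavily in these within-group values. They are also the highest picked from 14738 genes over 10 libraries, where high values can arise by selection alone. Efna1 had an r of 0.905 with Efnb3 over the 10 libraries and -0.29 within groups. Efnb2 had 0.502 and 0.691.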

How the data were processed

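Transcript levels, exon bin counts and spliced read counts of 10 cortex libraries were used. The gene table the authors deposited holds TPM, and the deposited exon bin and intron tables hold raw counts per library, per the file headers; the bin table also carries the authors' log2 fold changes, p-values and adjusted p-values from their own comparison. STAR 2.7.9a, featureCounts of the Subread package, SAMtools 1.10 and GRCm38 are listed in the submitters' processing notes; the estimator behind the TPM is not given in the sources used here. The reads counted limit the precision of each TPM value, and the number of libraries limits that of the group means.

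Levels were tested with limma 3.58.1 (trend and robust) on log2(TPM + 0.5) after genes averaging under 0.5 TPM were left out, with labelled sex as covariate and Benjamini-Hochberg adjustment over all genes at 0.05. A fold change on this scale understates the change of low genes. Exon bins (mean of at least 10 reads) and introns (at least 5) were tested for relative use with edgeR 4.0.16 (quasi-likelihood, diffSpliceDGE), calling a gene or intron group by its Simes p; gene sums of bins were tested with edgeR and with DESeq2 1.42.0. In Usp7 WT replicate 1, 100% of the intron counts were even (52.8% to 55.0% in other libraries), and they were halved; the 10 libraries then held 3388310 to 4367711 spliced reads. Methods were tested on simulated data.

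Bin coordinates were matched to GENCODE M21 on GRCm38 (99.8% of bins inside an annotated gene). The ephrins, the lists and the tests were chosen with earlier results of these data known. Named genes were the 8 ephrins, up to 5 genes per pathway list by smallest p, and protein-coding genes within 50 kb. The 5 genes most like Efnb3 by either correlation were also named. Gja4, Gfap and Pvalb, named as the single called marker of their list, were chosen after their values were seen. So were C1ql1, Lhfpl3 and Gpr17 among the oligodendrocyte precursor markers. The labels speak of 5 litter-matched pairs without naming them, so levels were fitted with no block; a block on the suffix of the library titles, which the labels do not explain, was an alternative. Alternatives changed the pseudocount, filter, scaling, covariate, test or libraries. Those for neighbouring genes, exon skipping and the title suffix were chosen after seeing the data.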

Additional observations from a re-analysis of the deposited data

Results flagged for a closer look

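A single value stood apart within its group. Efnb3 was at 153 TPM in Usp7 cKO replicate 5, while the other 4 Usp7 cKO libraries lay between 135 and 138 TPM. The gap to the nearest library was 0.864 of the range of the group. A gap above the limit used here arises by chance in about 1 in 20 groups, and 16 groups (8 ephrins in 2 genotypes) were read. Without this library the log2 change of Efnb3 was 0.77 and remained called (limma adjusted p = 0.000804).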

How the results depend on the processing

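Efnb3 and Efna1 kept direction and call in all 21 alternatives fitted without a block, with log2 changes of 0.73 to 0.87 and 0.72 to 0.85. Over the 168 values of the 8 ephrins, 152 kept direction and side of the threshold, 5 newly passed it (all Efna2) and 11 changed sign, none of them called. The sign turned for Efna3 after rescaling (-0.0061); for Efna5 after rescaling (-0.018), with Xist as covariate (-0.026), without the libraries of discordant sex (-0.0074) and by DESeq2 (-0.0012); for Efnb2 with Xist as covariate (-0.00032) and without those libraries (-0.030); and for Efna4 when single libraries were left out (-0.12 to 0.060). Among uncalled neighbours it turned after rescaling for Stk11 (-0.017), Zbtb7b (-0.023) and Trp53 (-0.053), by edgeR for Stk11 (-0.016) and Trp53 (-0.079), and for Trp53 without the libraries of discordant sex (-0.063). Without single libraries it turned for 1600002K03Rik (-0.22 to 0.072), Zbtb7b (-0.034 to 0.11), Wrap53 (-0.13 to 0.030) and Trp53 (-0.055 to 0.043). The causes were not tested.

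Counts moved more. Without the libraries of discordant sex, with 8 libraries in the fit, forward signalling had 1 higher and 1 lower, reverse signalling 0 and 0, and neighbours 2 and 0. edgeR gave 2 lower B receptors, 10 lower forward genes, 5 higher and 2 lower reverse genes and 4 lower neighbours, and rescaling gave 8 lower forward genes and 2 lower neighbours. Over all genes edgeR called 14.1% higher and 13.9% lower, and rescaled TPM 9.8% higher and 10.5% lower. The fit of 8 libraries called 4.75% higher and 3.14% lower. Leaving out single libraries gave 2 to 3 ephrins higher and 0 lower, 1 to 3 forward genes higher and 1 to 4 lower, 2 to 3 reverse genes higher and 0 to 1 lower, and 5 to 8 neighbours higher and 0 to 1 lower. Calls of ephrin bin or intron use stayed at 0 under every setting run. No label says which animals form a pair. The library titles end in 1, 2 or 3, a suffix the labels do not explain, and groups are equal in number and labelled sex within each suffix. With this suffix as a replicate block, chosen after seeing the data, limma called 13.2% of all genes and 3 ephrins higher and 0 lower, since Efna2 passed the threshold (0.32, adjusted p = 0.0144); Efnb3 (0.80, adjusted p = 0.000598) and Efna1 (0.79, adjusted p = 0.00304) stayed called, and the other 5 kept direction and stayed uncalled. Deviations from group means, correlated across genes between libraries of opposite groups, had a median r of 0.0698 within a suffix (-0.016 to 0.0924) and -0.0286 between suffixes, and 10 of 10 libraries correlated best with one of their own suffix, a hint from the data and not the design. Efna4 (25 to 44 reads) and the skipping of Efnb2 exon 3 and Efna3 exon 4 (29 to 76 skipping reads per group) are the values most limited by depth.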
